A study of Mus musculus with 15 samples.

Results

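Iron and folate enter the body through the epithelium of the small intestine, and 9 genes of these routes were followed across the epithelium of mouse jejunum and ileum. They were the rows of the deposited table whose only gene symbol was Slc46a1, Slc19a1, Cybrd1, Slc11a2, Slc40a1, Heph, Tfrc, Flvcr1 or Hmox1. All 9 genes were found, on 11 transcript clusters (the array's unit of measurement, a set of probes for 1 transcript), among 19938 genes with a symbol.

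RNA of isolated adult epithelial cells was measured on 15 Affymetrix Mouse Gene 1.0 arrays, 3 per group. The groups were jejunum labelled as Gata4 conditional knockout (cKO), ileum labelled as Gata4 conditional knockin (cKI), jejunum of wild-type (WT) CD1 mice, ileum of mice labelled only as control, and ileum of WT CD1 mice. The labels give neither the Cre driver, the exons deleted, the strain of the modified and control mice nor an age beyond adult, and they name no jejunal control for the cKO. The study asks how Gata4, a zinc finger transcription factor of the proximal intestine, bears on the difference between jejunum and ileum.

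Folate is taken up at the acidic brush border by the proton-coupled folate transporter SLC46A1, and the reduced folate carrier SLC19A1 moves folates at neutral pH. Ferric iron is reduced at the brush border by the ferrireductase CYBRD1 and enters as ferrous iron through SLC11A2 (DMT1). It leaves across the basolateral membrane through ferroportin (SLC40A1), with the ferroxidase hephaestin (HEPH). The transferrin receptor TFRC brings iron in from the blood side, FLVCR1 is known as a heme exporter and choline transporter, and HMOX1 breaks heme down. The duodenum, which was not sampled, is the main site of iron uptake, and folate uptake is known to be highest in the proximal small intestine.

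Gata4 itself was at 9.72, 9.88 and 9.93 on the arrays labelled cKO jejunum, against 9.68, 9.45 and 9.47 in WT jejunum (log2 values, as all values below). It was at 8.02, 8.43 and 8.17 in cKI ileum, against 6.71, 7.22 and 6.53 in control ileum, and at 5.99, 5.43 and 5.39 in WT ileum. The knockin arrays thus had more Gata4 signal than their controls, by 1.38 ± 0.185 (log2 difference ± standard error, adjusted p = 0.00453), although in a fit of these 6 arrays alone the adjusted p was 0.0524. The arrays labelled cKO had no less Gata4 signal than WT jejunum, with a difference of 0.31 ± 0.185 (adjusted p = 0.322). A transcript cluster sums probes along the gene, and since the deleted part is not stated the Gata4 signal does not check the knockout label. Each direction given below for the knockout rests on that label. The comparison with WT jejunum also sets mice of unstated strain against CD1 mice. The knockout label and a difference between the mice therefore cannot be told apart there.

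All 9 epithelial markers, Vil1 and Epcam among them, were above the level filter in every group. The filter was the median of the whole table, 4.91, which at least 1 group mean had to exceed for a gene to enter the tests. This kept 11784 genes in all and 8 of the 9 described here, the exception being Hmox1. A difference is the first-named group minus the second, from a limma fit over all 15 arrays, with its standard error. The p-values were adjusted over the 11784 genes, and a gene is called at an adjusted p under 0.05. The ± after a mean is the SD over the group's arrays (n = 3). Nothing in the labels says that arrays of 1 group came from separate mice, so p-values measure the spread between these arrays, which may be technical. Arrays of the cKO group resembled each other less (Pearson r 0.971 to 0.978) than arrays within the other groups (0.984 to 0.99).

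The promoters of Slc46a1 and Flvcr1 are shown because these were the 2 genes of the set that were high in WT jejunum and low on the arrays labelled cKO. Each runs from 250 bases before to 50 bases after the RefSeq start site (build GRCm38.p6). They lie at chr11:78465451-78465750 on the plus strand and at chr1:191026141-191026440 on the minus strand. The letters GATA, or TATC for the same motif on the other strand, are in capitals.
Slc46a1: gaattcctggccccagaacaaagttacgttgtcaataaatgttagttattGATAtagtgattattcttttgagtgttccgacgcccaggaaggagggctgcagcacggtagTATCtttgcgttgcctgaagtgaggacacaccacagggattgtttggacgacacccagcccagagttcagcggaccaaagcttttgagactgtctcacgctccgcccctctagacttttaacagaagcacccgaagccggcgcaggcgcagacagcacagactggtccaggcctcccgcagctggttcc
Flvcr1: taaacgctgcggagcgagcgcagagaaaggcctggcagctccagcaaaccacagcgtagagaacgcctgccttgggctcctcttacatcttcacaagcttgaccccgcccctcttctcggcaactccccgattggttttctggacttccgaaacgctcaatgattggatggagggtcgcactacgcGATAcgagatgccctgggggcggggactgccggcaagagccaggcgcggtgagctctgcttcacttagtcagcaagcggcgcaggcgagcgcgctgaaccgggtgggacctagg

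The Slc46a1 window held GATA on the gene's strand with its first base at position -200 from the start site, and TATC at -139. The Flvcr1 window held 1 GATA, at -64. These 4 letters, on either strand, stood in 57.9% of the 32817 RefSeq promoter windows of this length. The longer GATA motif was searched on both strands as AGATAA or as AGATAG, and with T in place of the leading A. It was in none of the 7 windows that covered 5 of the 9 genes (Slc46a1, Slc19a1, Cybrd1, Tfrc and Flvcr1) and stood in 29.8% of all windows. A match of letters is a description of the window and not a binding site.

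Slc46a1, the proton-coupled folate transporter (transcript cluster 10379184), was high in WT jejunum and low in every other group. Its values were 7.09, 6.14 and 6.20 on the arrays labelled cKO jejunum, 5.99, 6.56 and 6.33 in cKI ileum, 9.84, 9.82 and 9.29 in WT jejunum, 6.21, 6.22 and 5.99 in control ileum, and 5.87, 5.73 and 6.07 in WT ileum. The 3 WT jejunal arrays lay at least 2 log2 units above the remaining 12 arrays. Among those 12, the values of cKI and control ileum overlapped, as did those of control and WT ileum.

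Between the WT regions, Slc46a1 averaged 9.65 ± 0.31 in jejunum and 5.89 ± 0.17 in ileum. The difference was 3.76 ± 0.228 (13.5-fold, adjusted p = 3.14e-08), which ranked 36th of the 11784 genes by size among higher values. On the arrays labelled cKO jejunum it averaged 6.48 ± 0.53, and it was lower than in WT jejunum by a difference of -3.17 ± 0.228 (9.02-fold, adjusted p = 5.4e-07), the 17th largest fall. Leaving out any 1 of the 6 arrays kept that difference between -3.48 and -3.01. The 2 comparisons share the WT jejunal arrays, so their opposite signs are not independent.

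The comparison of the arrays labelled cKO jejunum with WT ileum does not use those arrays. There Slc46a1 was 0.59 ± 0.228 higher (adjusted p = 0.165, 95% interval 0.0992 to 1.07), and all 3 cKO arrays were above all 3 WT ileal arrays. In cKI ileum Slc46a1 averaged 6.3 ± 0.287, against 6.14 ± 0.127 in control ileum. That difference, 0.16 ± 0.228, did not pass the test (adjusted p = 0.782, 95% interval -0.33 to 0.643). The whole interval lay below the difference between the WT regions. Against WT jejunum, cKI ileum was lower by a difference of -3.35 ± 0.228 (10.2-fold, adjusted p = 1.22e-07).

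**Figure D1:**
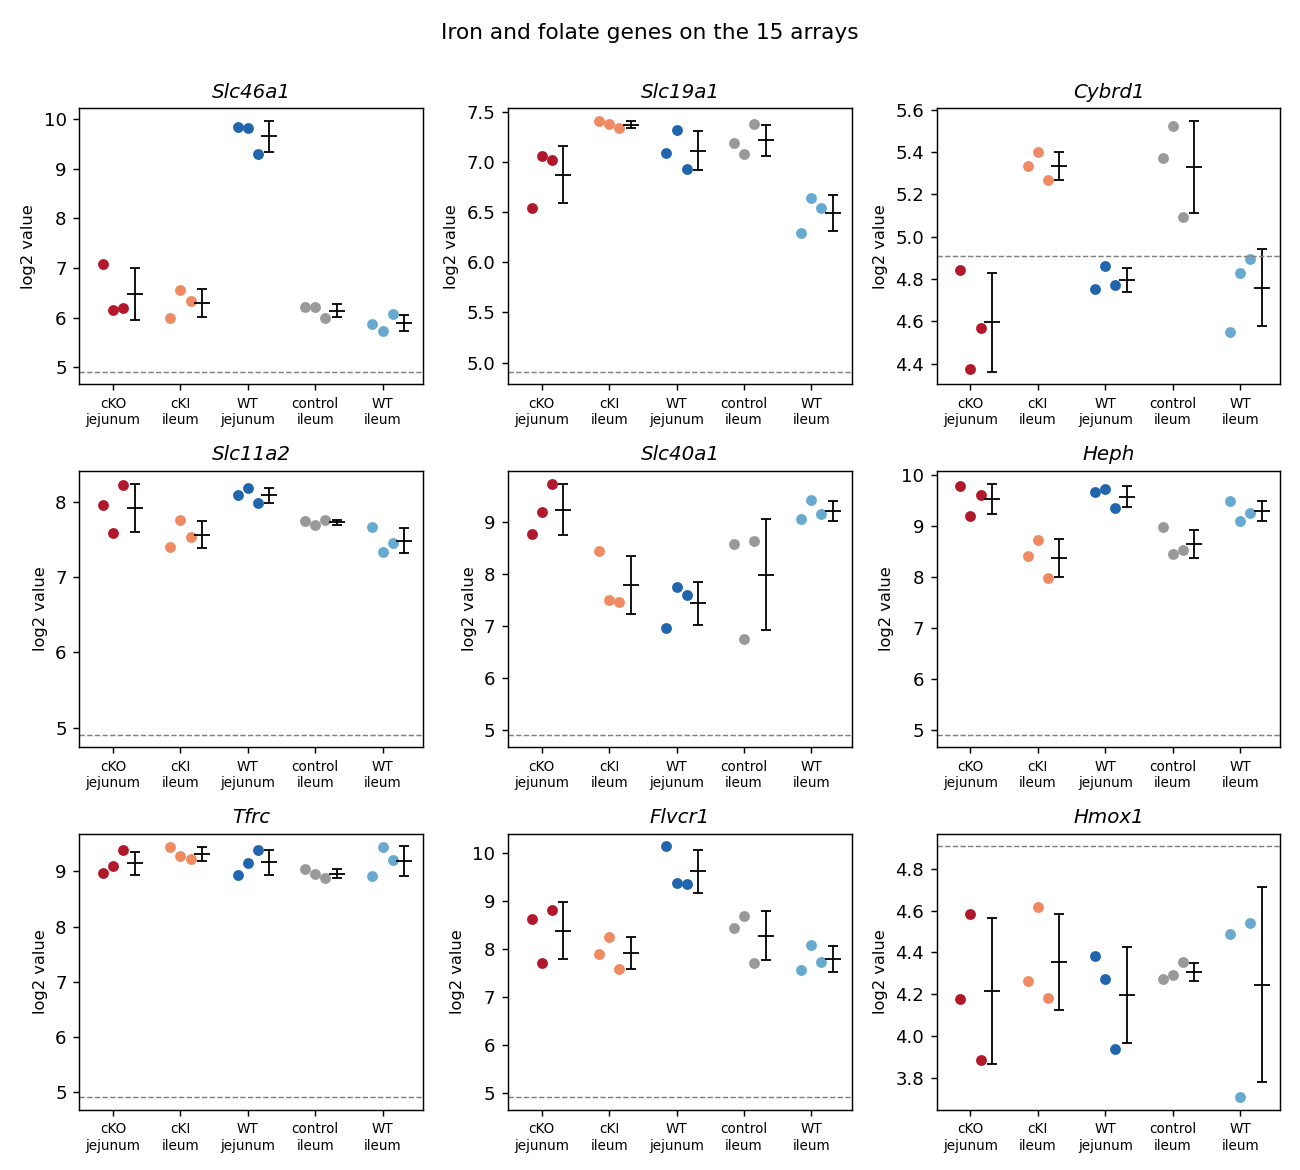
Log2 values of the 9 genes on each of the 15 arrays, by group along the horizontal axis. Points are arrays, bars the mean ± SD of n = 3, and the dashed line the level filter at 4.91, with vertical axes that differ between genes. Slc46a1 is high in WT jejunum, where it averaged 9.65, and averaged no more than 6.48 in the other groups.

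**Figure D2:**
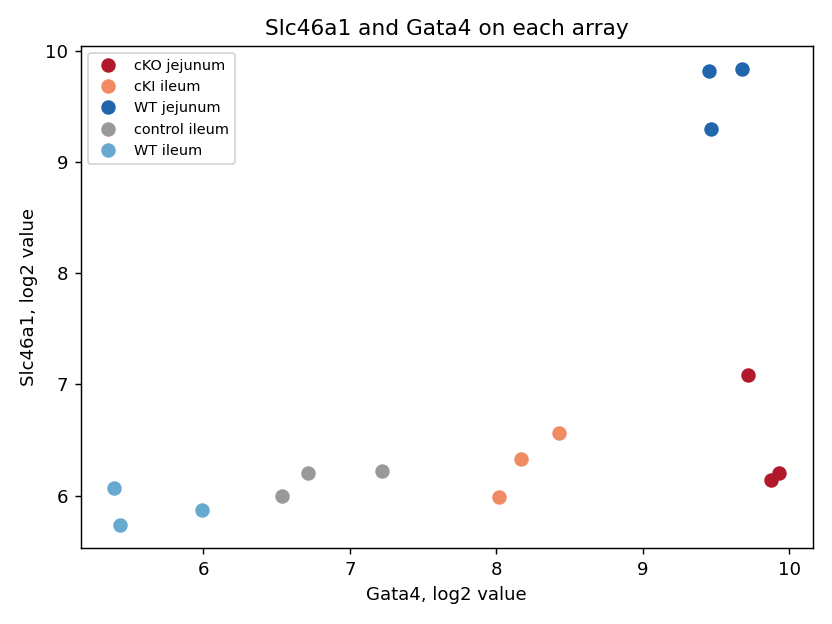
Log2 value of Gata4 (horizontal) and of Slc46a1 (vertical) on the same 15 arrays, 1 point per array, coloured by group. The cKI ileal arrays, with Gata4 between 8.02 and 8.43, have Slc46a1 between 5.99 and 6.56, and the arrays labelled cKO jejunum have Gata4 from 9.72 to 9.93 with Slc46a1 from 6.14 to 7.09.

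Slc19a1, the reduced folate carrier (cluster 10364239), differed far less between the groups. It was at 6.54, 7.06 and 7.02 on the arrays labelled cKO jejunum, 7.41, 7.38 and 7.34 in cKI ileum, 7.09, 7.32 and 6.93 in WT jejunum, 7.19, 7.08 and 7.38 in control ileum, and 6.29, 6.64 and 6.54 in WT ileum. WT jejunum exceeded WT ileum without overlap, by 0.62 ± 0.148 (1.54-fold, adjusted p = 0.00677). Control ileum exceeded WT ileum by 0.73 ± 0.148 (1.66-fold, adjusted p = 0.00243), so the contrast between the ileal groups was about as large as that between the WT regions. Neither the knockout label (-0.24 ± 0.148, adjusted p = 0.347) nor the knockin (0.16 ± 0.148, adjusted p = 0.64) passed the test.

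The apical iron genes Cybrd1 and Slc11a2 were at very different distances from the level filter. Cybrd1, the ferrireductase (cluster 10472757), averaged 4.6 ± 0.233 on the arrays labelled cKO jejunum, 4.8 ± 0.058 in WT jejunum and 4.76 ± 0.182 in WT ileum, all below the filter. It averaged 5.34 ± 0.0662 in cKI ileum and 5.33 ± 0.218 in control ileum, just above it. Cybrd1 passed the filter only through those ileal groups, so its differences from the WT groups are given as a description: 0.57 for control minus WT ileum and 0.54 for cKI ileum minus WT jejunum, with no overlap in either. The cKI and control values of Cybrd1 overlapped, with a difference of 0.0059 ± 0.137 (adjusted p = 0.99, 95% interval -0.288 to 0.299), and the WT regions differed by 0.04 ± 0.137 (adjusted p = 0.896).

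Slc11a2, which carries ferrous iron into the enterocyte (cluster 10432573), was at 7.95, 7.58 and 8.22 on the arrays labelled cKO jejunum, 7.40, 7.75 and 7.53 in cKI ileum, 8.09, 8.18 and 7.98 in WT jejunum, 7.74, 7.68 and 7.75 in control ileum, and 7.67, 7.33 and 7.45 in WT ileum. WT jejunum lay above WT ileum without overlap, by 0.6 ± 0.148 (1.52-fold, adjusted p = 0.00846). The cKO arrays spanned from below the WT jejunal values to above them, and the difference was -0.17 ± 0.148 (adjusted p = 0.527). In cKI ileum it was -0.16 ± 0.148 relative to control (adjusted p = 0.623). Against WT jejunum, cKI ileum was lower by a difference of -0.52 ± 0.148 (1.44-fold, adjusted p = 0.0109), with an adjusted p of 0.0512 without cKI ileum replicate 1.

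Slc40a1, which encodes ferroportin, ran opposite to Slc46a1 and Flvcr1 between the WT regions and with the knockout label. Its values (cluster 10354374) were 8.77, 9.20 and 9.74 on the arrays labelled cKO jejunum, 8.44, 7.49 and 7.45 in cKI ileum, 6.96, 7.74 and 7.60 in WT jejunum, 8.58, 6.75 and 8.63 in control ileum, and 9.06, 9.43 and 9.16 in WT ileum. The WT jejunal arrays lay below all WT ileal and all cKO arrays. The control ileum held 1 array, replicate 2, far below the other two.

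Slc40a1 averaged 7.43 ± 0.415 in WT jejunum and 9.22 ± 0.188 in WT ileum, a difference of -1.78 ± 0.424 (3.44-fold lower, adjusted p = 0.00683). On the arrays labelled cKO jejunum it averaged 9.24 ± 0.488 and rose by 1.8 ± 0.424 over WT jejunum (3.49-fold, adjusted p = 0.0107). Without WT jejunum replicate 1 that rise was 1.57 and the call was lost (adjusted p = 0.057). Against WT ileum the cKO arrays differed by 0.02 ± 0.424 (adjusted p = 0.985, 95% interval -0.885 to 0.928), an interval wide enough to hold differences of nearly 1 log2 unit either way.

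The knockin comparison of Slc40a1 did not pass the test, with -0.19 ± 0.424 (adjusted p = 0.867, 95% interval -1.1 to 0.716). It was -0.81 without control ileum replicate 2, 0.13 without replicate 3 and 0.105 without replicate 1. Control ileum was lower than WT ileum by a difference of -1.23 ± 0.424 (2.35-fold, adjusted p = 0.0423), but without control ileum replicate 2 it was -0.61 (adjusted p = 0.187). It was also lost without WT ileum replicate 1 (adjusted p = 0.0707), replicate 2 (0.118) or replicate 3 (0.0826).

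Ferroportin is made by macrophages as well as enterocytes, and fewer cells of a type and less RNA per cell cannot be told apart in such samples. The mean log2 value over 14 macrophage and monocyte markers ranged from 4.78 to 4.98 on the arrays labelled cKO jejunum, 4.83 to 4.85 in cKI ileum, 4.71 to 4.79 in WT jejunum, 4.84 to 5.18 in control ileum and 4.86 to 5.05 in WT ileum. Only 4 of the 14 averaged above the filter in each group, or 7 in control ileum. These means therefore rest largely on signals below the filter and do not measure macrophage content. Of the 7 tested, Cd14 and Itgam were lower in WT jejunum than in WT ileum, where 7.91% of all genes were. Cd14 was higher on the arrays labelled cKO than in WT jejunum, where 5.17% of all genes were. Cd14, a lipopolysaccharide co-receptor, averaged 8.24 ± 0.249 on the arrays labelled cKO jejunum, 7.9 ± 0.175 in cKI ileum, 7.25 ± 0.219 in WT jejunum, 7.65 ± 0.18 in control ileum and 8.38 ± 0.3 in WT ileum. Its difference was -1.13 ± 0.173 between the WT regions (adjusted p = 0.000211) and 0.99 ± 0.173 for the knockout label (adjusted p = 0.00134), so it moved with Slc40a1 in both. These comparisons share the WT jejunal arrays, so for either gene their opposite signs are not independent. Itgam, an integrin subunit of myeloid cells, averaged 6.26 ± 0.402, 6.75 ± 0.217, 5.76 ± 0.17, 6.7 ± 0.5 and 7.14 ± 0.19 in the same order of groups. It was lower in WT jejunum than in WT ileum by a difference of -1.38 ± 0.232 (adjusted p = 0.000479), and the knockout label gave 0.51 ± 0.232 (adjusted p = 0.186). Lyz2, a lysozyme of macrophages and other cells, was above the filter in every group, with means of 8.16 to 9.13, and neither comparison passed the test. The remaining tested markers, Cd68, Csf1r, C1qa and C1qb, passed in neither comparison. Their differences were 0.31, -0.04, -0.05 and -0.16 between the WT regions. For the knockout label they were 0.01, 0.07, -0.08 and -0.20. Csf1r, C1qa and C1qb averaged below the filter in every group but control ileum, so their differences show little. Lyz2 and Cd68 were above it in every group and passed in neither comparison, so Cd14 does not stand for the list. Adgre1, a defining macrophage surface marker, averaged between 2.71 and 3.03, below the filter in every group, and Mrc1 between 3.57 and 4.17. Control ileum replicate 2 had the lowest Slc40a1 value, 6.75, and the highest macrophage, stromal and lymphocyte means of its group, 5.18, 6.51 and 6.98. Their part in the result was not tested.

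Heph, the ferroxidase that works with ferroportin (cluster 10600857), did not follow it between the WT regions or with the knockout label. In control against WT ileum Heph was called lower, as Slc40a1 was, with both calls lost in several fits. Heph was at 9.78, 9.19 and 9.60 on the arrays labelled cKO jejunum, 8.41, 8.71 and 7.99 in cKI ileum, 9.66, 9.71 and 9.34 in WT jejunum, 8.97, 8.44 and 8.52 in control ileum, and 9.49, 9.10 and 9.26 in WT ileum. All cKI and control ileal values lay below all others.

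WT jejunum and ileum differed in Heph by 0.29 ± 0.202 (adjusted p = 0.367), and the knockout label by -0.05 ± 0.202 (adjusted p = 0.921). Control ileum was below WT ileum by a difference of -0.64 ± 0.202 (1.56-fold, adjusted p = 0.0287). That call was lost without WT ileum replicate 1 (adjusted p = 0.105), WT ileum replicate 3 (0.0624), control ileum replicate 2 (0.105) or control ileum replicate 3 (0.0922). cKI ileum was below WT jejunum by a difference of -1.2 ± 0.202 (2.3-fold, adjusted p = 0.000308), while against control it was -0.27 ± 0.202 (adjusted p = 0.536).

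Tfrc, the transferrin receptor (cluster 10435075), had the narrowest range of group means of the 8 tested genes, 0.352 log2 units. It was at 8.98, 9.09 and 9.38 on the arrays labelled cKO jejunum, 9.45, 9.27 and 9.22 in cKI ileum, 8.94, 9.16 and 9.39 in WT jejunum, 9.05, 8.95 and 8.88 in control ileum, and 8.91, 9.45 and 9.20 in WT ileum. The cKI and control values did not overlap, with a difference of 0.35 ± 0.151, but this did not pass the test (adjusted p = 0.299). With array weights it did (0.45, adjusted p = 0.0454), in a fit where 766 of all 11784 genes were called. Dividing cells are known to carry much TFRC. The mean over 9 proliferation markers ranged from 8.5 to 8.88 in cKI ileum, against 8.23 to 8.48 in control ileum. Of the 9 markers 0 were called between these groups, against 0.764% of all genes. The part of proliferation in the Tfrc values was not tested.

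Flvcr1 (cluster 10361065) was high in WT jejunum, as Slc46a1 was, with a smaller contrast. It was at 8.63, 7.70 and 8.81 on the arrays labelled cKO jejunum, 7.90, 8.25 and 7.59 in cKI ileum, 10.15, 9.37 and 9.36 in WT jejunum, 8.44, 8.69 and 7.71 in control ileum, and 7.56, 8.09 and 7.74 in WT ileum. All 3 WT jejunal values lay above the other 12.

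Flvcr1 averaged 9.63 ± 0.451 in WT jejunum and 7.79 ± 0.271 in WT ileum, a difference of 1.83 ± 0.312 (3.56-fold, adjusted p = 0.000548). On the arrays labelled cKO jejunum it averaged 8.38 ± 0.596 and was lower than in WT jejunum by a difference of -1.24 ± 0.312 (2.37-fold, adjusted p = 0.0157). Without WT jejunum replicate 1 this was -0.98 (adjusted p = 0.0857), and without cKO jejunum replicate 2 it was -0.9 (adjusted p = 0.0777). Against WT ileum the cKO arrays differed by 0.59 ± 0.312 (adjusted p = 0.32). In cKI ileum Flvcr1 differed from control by -0.37 ± 0.312 (adjusted p = 0.595, 95% interval -1.03 to 0.299), and it was lower than WT jejunum by a difference of -1.71 ± 0.312 (3.28-fold, adjusted p = 0.000564).

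The second Flvcr1 cluster on the array, 10361075, was dimmer and had the same order of the WT and cKO groups. It averaged 6.44 ± 0.451 on the arrays labelled cKO jejunum, 7.52 ± 0.674 in WT jejunum and 6.32 ± 0.0845 in WT ileum. Its cKI mean of 6.89 ± 0.208 and control mean of 7.2 ± 0.29 lay between those. Unlike in the brighter cluster, the WT jejunal values did not all lie above the other arrays. They were 8.30, 7.13 and 7.14, against 7.26, 7.46 and 6.88 in control ileum. The second Slc19a1 cluster, 10364249, was at 5.7 ± 0.641 in WT jejunum and 5.29 ± 0.0994 in WT ileum, with WT jejunum replicate 1 (4.97) below all WT ileal arrays.

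Hmox1, heme oxygenase 1 (cluster 10572897), was below the level filter on all 15 arrays, between 3.71 and 4.62, and was not tested. Its group means spanned 0.158 log2 units. In a fit without the filter its adjusted p was 0.936 for WT jejunum against WT ileum, 0.982 for cKI against control ileum and 0.973 for the arrays labelled cKO against WT jejunum. Hmox2, the constitutive heme oxygenase, was by contrast at 8.02 in WT jejunum and higher there than in WT ileum by 0.41 ± 0.112 (adjusted p = 0.0163), a call lost in a fit of these 6 arrays alone (0.0527) and without any 1 of 4 arrays (WT ileum replicates 1 and 2, WT jejunum replicates 1 and 2, adjusted p from 0.0514 to 0.0921).

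**Figure D3:**
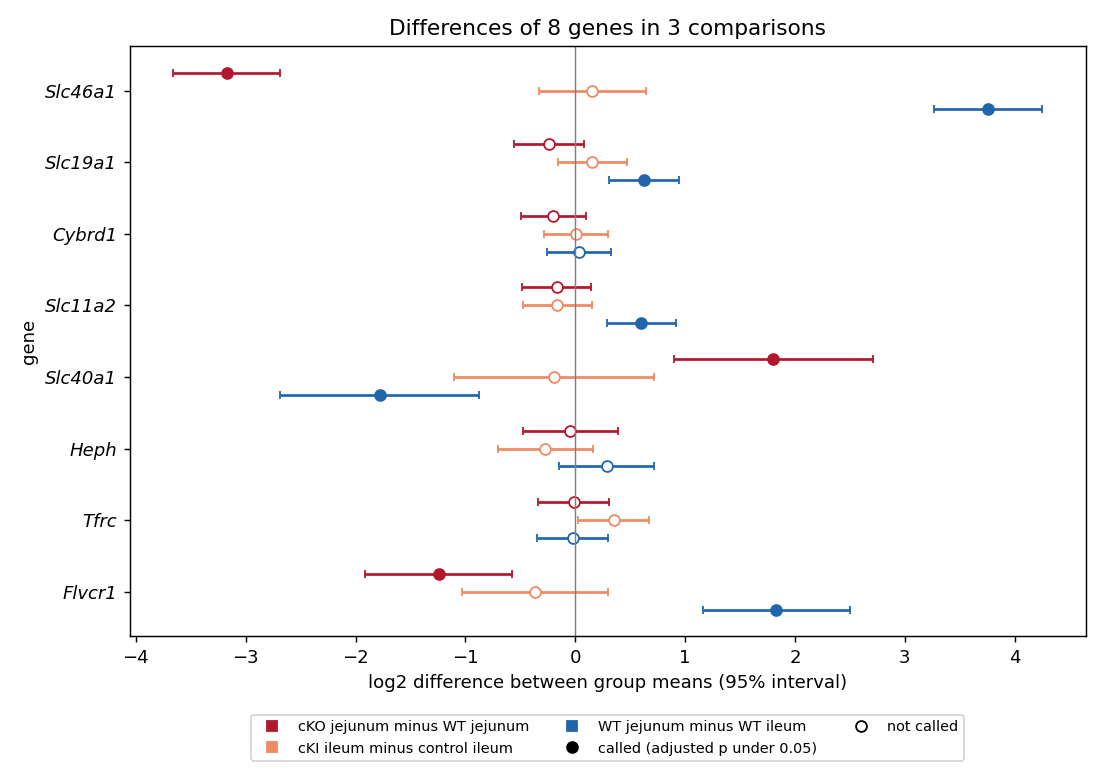
Log2 differences of the 8 tested genes (horizontal) with 95% intervals from limma, for 3 comparisons. Filled points are called and open points are not. Slc46a1 and Flvcr1 lie to the left of 0 for the knockout label and to the right for WT jejunum minus WT ileum, Slc40a1 the other way round, and no point of cKI minus control ileum is filled.

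Counted over the set, 4 of the 8 tested genes were higher in WT jejunum than in WT ileum and 1 was lower, in a comparison where 21.3% of all genes were called, 13.4% higher and 7.91% lower. The median difference of the 8 was 0.445, against 0.00378 over all genes tested. The same 5 genes had groups that did not overlap, as did 40.3% of all genes. For the arrays labelled cKO against WT jejunum, 1 gene was higher and 2 were lower, where 12.8% of all genes were called, 5.17% higher and 7.65% lower. The median was -0.184, against -0.0303 over all genes, and the groups did not overlap in 3 of the 8, as in 27.2% of all genes. Without WT jejunum replicate 1 the count was 1, Slc46a1, and without cKO jejunum replicate 2 it was 2.

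For cKI against control ileum 0 of the 8 genes were called by limma, where 0.764% of all genes were, 0.339% higher and 0.424% lower. At an unadjusted limma p under 0.05 it was 1 gene, Tfrc, beside 1804 of all 11784 genes. Tfrc was also the only one whose groups did not overlap, as they did not in 20.9% of all genes. With array weights it was called, where 766 of all 11784 genes were. Without weights the all-gene calls numbered 90, and 257 with the replicate number as a block within sets of mice. In the block fit 0 of the 8 were called as well. The cKO arrays against WT ileum gave 0 calls among the 8 and 5.1% among all genes, 3.26% higher and 1.84% lower. In 1 of the 8, Slc46a1, the groups did not overlap, against 22% of all genes. At an unadjusted limma p under 0.05 there were 3 genes (Slc46a1, Slc19a1 and Slc11a2), beside 2322 of all 11784 genes. There Slc19a1 was called without cKO jejunum replicate 1 (0.55, adjusted p = 0.0416) and Slc11a2 without cKO jejunum replicate 2 (0.6, adjusted p = 0.0214).

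The control and WT ileum, neither of which carries a labelled change of Gata4, differed in 4 of the 8 genes, 2 higher and 2 lower, where 27.9% of all genes were called, 19.3% higher and 8.61% lower. Of the 2 higher genes, Cybrd1 was tested only through the group where it is high and had to differ, so the count lends no support. The groups did not overlap in 5 of the 8 and in 44.8% of all genes. The count of 4 was 2 without WT ileum replicate 1, WT ileum replicate 3 or control ileum replicate 2. Gata4 was also higher in control than in WT ileum, by 1.22 ± 0.185 (adjusted p = 0.000284). For cKI ileum against WT jejunum 1 gene was higher and 4 were lower, where 41.8% of all genes were called, 25.5% higher and 16.3% lower. The higher gene was Cybrd1, for which the same holds. In 6 of the 8 the groups did not overlap, against 55.5% of all genes. These groups differ in region, mice and label together, so the contributions of these cannot be told apart.

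Another 89 genes of iron, heme and folate handling were listed in 9 groups with the 9 genes above, of which 67 were tested. Between WT jejunum and WT ileum 13 were higher and 1 lower, or 20.9%, against 21.3% of all genes. On the arrays labelled cKO, 2 were higher and 11 lower than in WT jejunum, or 19.4%, against 12.8% of all genes. In cKI ileum 0 were higher and 1 lower than in control, or 1.49%, against 0.764% of all genes.

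Genes of iron sensing and storage were among those called both between the WT regions and with the knockout label. These comparisons share the WT jejunal arrays, so opposite signs in them are not independent, here or for the genes below. Aco1, the cytosolic aconitase that doubles as iron regulatory protein 1, averaged 9.48 ± 0.163 on the arrays labelled cKO jejunum, 10.05 ± 0.121 in WT jejunum and 9.07 ± 0.0924 in WT ileum. It was higher in WT jejunum than in WT ileum by 0.97 ± 0.107 (adjusted p = 1.001e-05), and the cKO arrays were lower than WT jejunum by a difference of -0.57 ± 0.107 (adjusted p = 0.00234). They still exceeded WT ileum, by 0.41 ± 0.107 (adjusted p = 0.0399). Ireb2, iron regulatory protein 2, was higher in WT jejunum by 0.63 ± 0.1 (adjusted p = 0.000328). Both proteins are known to bind iron-responsive elements in the transcripts of Tfrc, Slc11a2, Slc40a1 and ferritin, which acts on stability and translation.

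Ncoa4, the receptor that delivers ferritin for breakdown, was higher in WT jejunum than in WT ileum by 0.89 ± 0.121 (1.85-fold, adjusted p = 7.956e-05). On the arrays labelled cKO jejunum it was lower than in WT jejunum by a difference of -0.62 ± 0.121 (1.54-fold, adjusted p = 0.00311). Fth1, the ferritin heavy chain, was higher in WT jejunum by 0.56 ± 0.0899 (adjusted p = 0.000356). The cKO arrays differed from WT jejunum in Fth1 by -0.37 ± 0.0899 (adjusted p = 0.0132), lost without WT jejunum replicate 1 (0.0623) or cKO jejunum replicate 2 (0.062) and in a fit of the 6 arrays alone (0.101). Of the 7 tested genes of the ferritin and chaperone list these 2 were called in each comparison, beside the same shares of all genes, 13.4% higher and 7.65% lower.

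Hif1a, a hypoxia-inducible factor, averaged 7.39 ± 0.431 on the arrays labelled cKO jejunum and 8.59 ± 0.0456 in WT jejunum, a difference of -1.2 ± 0.176 (2.3-fold, adjusted p = 0.000346). It was 9.05 ± 0.0839 in cKI ileum, against 8.41 ± 0.204 in control ileum (0.64 ± 0.176, adjusted p = 0.113). Epas1, which encodes the HIF-2 subunit known to drive Cybrd1, Slc11a2 and Slc40a1 in the gut, differed by 0.2 ± 0.334 between the cKO arrays and WT jejunum (adjusted p = 0.768) and by -0.13 ± 0.334 between the WT regions (adjusted p = 0.841). Of the 13 tested genes of iron and oxygen sensing 4 were higher in WT jejunum than in WT ileum, where 13.4% of all genes were, and 4 were lower on the cKO arrays than in WT jejunum, where 7.65% of all genes were.

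Among other transporters, Slc39a14, a zinc and iron importer, was higher in WT jejunum than in WT ileum by 0.95 ± 0.141 (1.93-fold, adjusted p = 0.000167). It was -0.28 ± 0.141 on the arrays labelled cKO relative to WT jejunum (adjusted p = 0.238). Abcg2, an apical exporter whose substrates include folates and porphyrins, averaged 9.65 ± 0.202 on the arrays labelled cKO jejunum, 8.27 ± 0.21 in cKI ileum, 8.91 ± 0.189 in WT jejunum, 9.13 ± 0.308 in control ileum and 9.54 ± 0.316 in WT ileum. It was lower in WT jejunum than in WT ileum (-0.63 ± 0.186, adjusted p = 0.0252) and higher on the cKO arrays than in WT jejunum (0.73 ± 0.186, adjusted p = 0.0167).

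In cKI ileum Abcg2 differed from control by -0.85 ± 0.186, with an adjusted p that rounds to the threshold of 0.05. Each of the 3 Abcg2 calls was lost in several fits. For the WT regions these were a replicate block within sets of mice (adjusted p = 0.0548) and leaving out WT ileum replicate 1 (0.116), WT ileum replicate 3 (0.0796), WT jejunum replicate 1 (0.059) or WT jejunum replicate 3 (0.0958). For the knockout label they were leaving out WT jejunum replicate 3 (0.0667) or cKO jejunum replicate 1 (0.062). For cKI they were leaving out control ileum replicate 1 (0.102) or 3 (0.112) or cKI ileum replicate 1 (0.197) or 3 (0.167), both blocks (0.0579 over all arrays and 0.07 within sets), no level filter (0.0649), centred array medians (0.0654) and the 6 arrays alone (0.125).

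Of the heme list, 15 genes were tested. Ppox, a late enzyme of heme synthesis, was higher in WT jejunum than in WT ileum by 0.77 ± 0.113 (adjusted p = 0.000149). The arrays labelled cKO were lower in Ppox than WT jejunum by a difference of -0.58 ± 0.113 (adjusted p = 0.00275). The list had 4 higher in the first comparison, Flvcr1 among them, and 1 higher and 4 lower in the second, where 13.4% of all genes were higher in the first and 5.17% higher and 7.65% lower in the second. Of 12 tested genes of intracellular folate metabolism, 0 were called by limma between the WT regions, against 21.3% of all genes, and 0 between cKI and control ileum, against 0.764%. In cKI ileum 4 of the 12 were higher than in WT jejunum, where 25.5% of all genes were higher: Ggh, Mthfd2, Tyms and Aldh1l1. Tyms is also 1 of the 9 proliferation markers, of which 8 were higher in the same comparison. The part of proliferation in these folate genes was not tested. On the cKO arrays 1 of the 12 folate genes was lower than in WT jejunum, near the 7.65% of all genes that were. It was Mthfd2, a mitochondrial folate enzyme (-0.55 ± 0.156, adjusted p = 0.0302). That call was lost without WT jejunum replicate 1 (0.08), WT jejunum replicate 2 (0.116), cKO jejunum replicate 1 (0.114) or cKO jejunum replicate 2 (0.0626), with array medians centred (0.0623) and in a fit of the 6 arrays alone (0.0774).

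**Figure D4:**
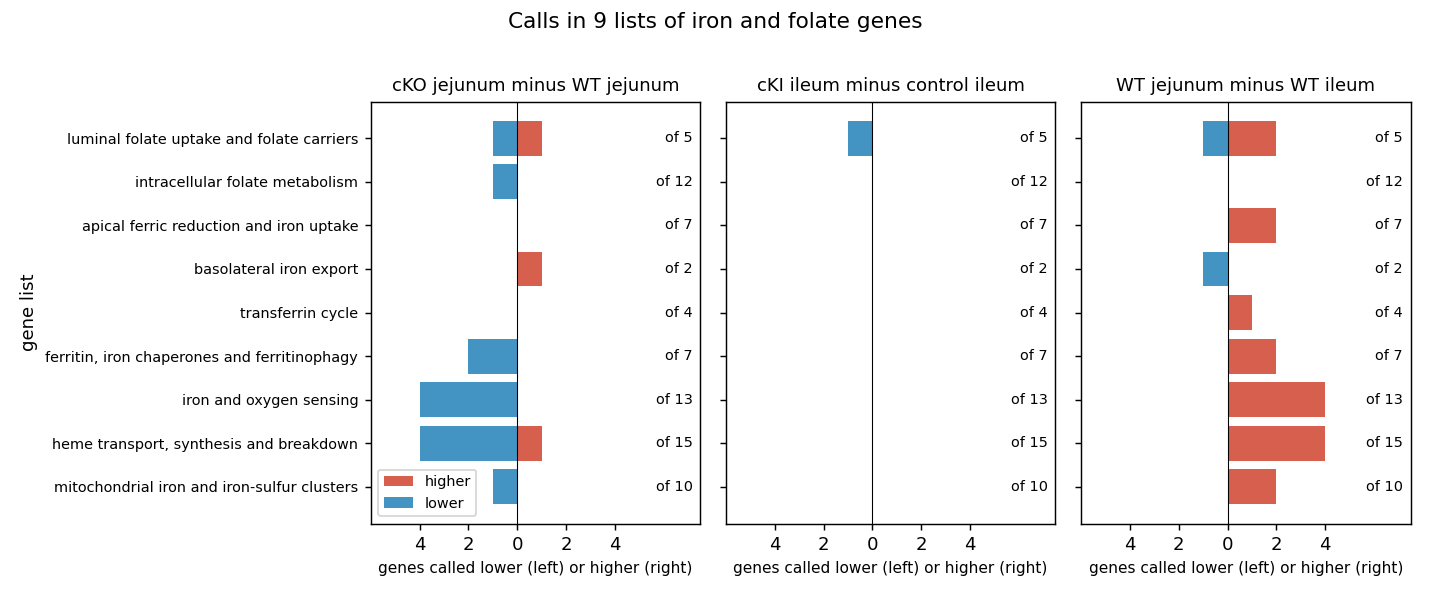
Number of tested genes called lower (left of 0) or higher (right of 0) in each of 9 lists, for 3 comparisons, with the number tested at the right of each panel. The lists include the 8 tested genes described above; iron and oxygen sensing has 4 of 13 lower for the knockout label and 4 of 13 higher in WT jejunum, and cKI minus control ileum has 1 call in all.

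Marker transcripts of several cell types also differed between the groups. More cells of a type and more RNA per cell cannot be told apart from such values. Of the 9 epithelial markers 3, Krt8, Krt18 and Krt19, were lower in WT jejunum than in WT ileum, where 7.91% of all genes were. The same 3 were higher on the arrays labelled cKO than in WT jejunum, where 5.17% of all genes were. Both comparisons share the WT jejunal arrays. The mean over 8 villus enterocyte markers, such as Apob and Alpi, was 11.7 on the arrays labelled cKO jejunum, 10.6 in cKI ileum, 12.2 in WT jejunum, 10.5 in control ileum and 10.6 in WT ileum. Of these 8 markers 6 were called higher by limma in WT jejunum than in WT ileum, where 13.4% of all genes were. Anpep and Ada were not (adjusted p = 0.411 and 0.23). On the cKO arrays 1 of the 8 was called lower than in WT jejunum, where 7.65% of all genes were. The mean over 12 stromal markers was 4.97, 5.25, 4.58, 5.94 and 5.48 in the same order of groups. Of the 10 stromal markers tested 8 were lower in WT jejunum than in WT ileum, where 7.91% of all genes were. In cKI ileum 2 were lower than in control ileum, where 0.424% of all genes were. Of the 8 lymphocyte markers tested 3 were lower in WT jejunum than in WT ileum, where 7.91% of all genes were. In cKI ileum 1 was lower than in control ileum, where 0.424% of all genes were. The T cell markers Cd3e, Cd3g and Cd8a averaged higher in WT jejunum (6.72, 6.25 and 6.64) than in WT ileum (6.56, 5.77 and 6.11). Cd2, Ptprc and the B lineage markers Cd79a, Cd79b, Ms4a1 and Jchain averaged lower in WT jejunum. The 4 named erythroid markers averaged between 3.96 and 4.11 in every group, with Rhag at 2.57 to 2.67. The part of the epithelial, villus, stromal and lymphocyte differences in the values of the transporters was not tested.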

How the data were processed

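Per the labels and the submitters' processing notes, the authors processed the arrays in Partek (version, background correction, normalization and summarization not given in the sources used here). The deposited log2 values, 1 per transcript cluster and array, were used as they stood. That they are log2 was read from their range. How they were centred is not known, and array medians ran from 4.823 to 4.997. Genes were named from the platform annotation: 21789 of 35556 clusters had 1 symbol, and of several clusters of a gene the brightest was used. limma 3.58.1 in R 4.3.3 fitted 1 mean per group to all 15 arrays (10 residual degrees of freedom), with two-sided moderated tests and the Benjamini-Hochberg adjustment. The steps were tested on simulated data.

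Named genes are the 9, Gata4, up to 2 per list and comparison by smallest p among called genes, and, for members called between the WT regions, the 3 most correlated genes. Epas1, the marker genes, and genes named where a count was small were added after their values were seen. Members and lists were chosen with earlier results of these data known.

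With each group's mean taken off, the arrays that carry the same replicate number correlated by 0.334, 0.216 and 0.161 between WT jejunum and ileum, and by 0.128, 0.177 and 0.258 between cKI and control ileum. All exceed the limit of 0.1 used here, so these numbers were treated as possible pairs, on the basis of the data alone. Equal numbers gave 0.185, -0.0247 and -0.0732 in cKO against WT jejunum. The limit was also exceeded between cKO jejunum and WT ileum, different mice by label (0.474 and 0.257 for replicates 1 and 2). There cKO replicate 3 and WT ileum replicate 2 correlated by 0.27 as well. The limit therefore does not establish pairing. The model had no replicate term. Alternatives were no or a stricter level filter (6), quantile or median-centred values, 2 groups alone, array weights, robust variance, a replicate block and leaving out each array. The block within sets of mice was chosen after seeing the data.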

Additional observations from a re-analysis of the deposited data

How the results depend on the processing

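The 8 tested genes gave 48 differences over 6 comparisons, refitted 762 times in all. Call and direction held in 718 of these, calls were lost in 16 and gained in 3, and the sign turned in 25, none of them with a call before or after. The lost and gained calls stand beside their genes above, except that Slc40a1 in control against WT ileum was also lost with no level filter (adjusted p = 0.0538), the 2 groups alone (0.08), array weights (-0.87, 0.054) and trended robust variance (0.0746). Where a cause is not plain from fewer arrays or genes, it was not tested.

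Signs turned for WT jejunum minus WT ileum in Cybrd1 with array weights (-0.00596). For the arrays labelled cKO minus WT jejunum they turned in Heph (0.0272) and Tfrc (0.0416) with quantile normalization, and in Tfrc with centred medians (0.0147) and array weights (0.0391). For the cKO arrays minus WT ileum they turned in Slc40a1 with quantile normalization (-0.0319) and Tfrc with centred medians (0.00588). The rest came from leaving out 1 array. Those ranges, for WT jejunum minus WT ileum, were -0.0674 to 0.105 for Cybrd1 and -0.16 to 0.11 for Tfrc. For cKI minus control ileum they were -0.112 to 0.103 for Cybrd1 and -0.809 to 0.132 for Slc40a1. For cKO minus WT jejunum they were -0.321 to 0.00148 for Slc11a2, -0.173 to 0.121 for Heph and -0.131 to 0.0968 for Tfrc. For cKO jejunum minus WT ileum they were -0.231 to 0.256 for Slc40a1 and -0.175 to 0.0945 for Tfrc.

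Leaving out 1 array gave 1 to 3 called of the 8 for cKO against WT jejunum, 2 to 4 for control against WT ileum and 0 to 1 for cKO against WT ileum, and array weights gave 1 for cKI against control ileum. Calls over all genes for WT jejunum against WT ileum were 2507, and 3967 with array weights. For cKI against control ileum they were 90, with 52 under no filter, 19 from the 2 groups alone, 766 with array weights and 20 to 176 when 1 array was left out. For cKO against WT jejunum they were 1510, with 979 from the 2 groups alone and 984 to 1532 when 1 array was left out. For cKO against WT ileum they were 601, with 299 and 279 to 592.

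A replicate block over all arrays or within sets of mice changed no call among the 8 genes, and within sets it moved the genes called for cKI against control ileum to 257. Quantile normalization moved the share of calls that were higher to 52% for WT jejunum against WT ileum (62.8% as deposited), 51.2% for cKO against WT jejunum (40.3%) and 47.9% for control against WT ileum (69.1%). Centred medians gave 58.6% for the last. With 3 arrays a group the intervals stay wide, above all for Slc40a1, and signals near the level filter, such as Cybrd1, limit what the array can show.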

Other observations

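For each of the 5 genes called between the WT regions, the 3 tested genes with the most similar profile over the 15 arrays were found by Pearson correlation. This is a description of arrays that share 5 groups and 1 normalization. Slc46a1 was most like Glyctk (r = 0.976), Pipox (0.975) and Cym (0.974). Flvcr1 was most like Fahd1 (0.934), Trim31 (0.932) and Eci3 (0.915). Slc40a1 was most like Pde8b (0.922), Slc6a14 (0.916) and Pof1b (0.902). Slc11a2 was most like B3gnt2 (0.961), Hnf4aos (0.93) and Acot2 (0.912), and Slc19a1 like Armc8 (0.945), Arhgef26 (0.937) and Tmem161b (0.929).

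Of the 67 other iron, heme and folate genes tested, 5 were higher on the arrays labelled cKO jejunum than in WT ileum. They were Flvcr2, a relative of Flvcr1 (1.66, adjusted p = 0.0151), Slc39a14 (0.67, adjusted p = 0.0119), Alas1, the first enzyme of heme synthesis (0.75, adjusted p = 0.0122), Blvrb, a biliverdin reductase (0.53, adjusted p = 0.0264), and Aco1 (0.41, adjusted p = 0.0399). None of the 67 was lower. This share, 7.46%, stands beside 5.1% of all genes.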
